A study of Danio rerio with 10 samples.

Results

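The 10 genes that encode the hormone precursors of the zebrafish (Danio rerio) pituitary were followed through 10 RNA-seq libraries of sorted pituitary cells. They were taken by name: pomca, pomcb, prl, gh1, smtla, smtlb, tshba, lhb, fshb and cga, and all 10 were among the 14781 genes of the deposited table. Adult males of the TL strain, 12 months old, had been injected with 10 µL of β-Ala-Lys-Nε-AMCA at 4.6 mM, a dipeptide that carries a blue fluorescent dye, and their pituitaries were taken 3 hours later in pools of 7. Every library therefore came from injected fish. Cells inside the dye gate, labelled pituicytes (the astroglia of the neurohypophysis), gave 5 libraries, called positive here. Cells outside it, labelled non-pituicytes, gave 5 more, called negative, with 2 libraries of each kind on plate 1 and 3 on plate 2. The 10 libraries came from 5 pools of pituitaries, so libraries of opposite groups can share fish, but the labels do not say which ones do. Cells were told apart by the dye alone, and each library mixes RNA of many cells from several animals.

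The hormones belong to different endocrine cells of the adenohypophysis. Pro-opiomelanocortin, from pomca, is cut into adrenocorticotropic hormone in corticotropes and melanocyte-stimulating hormone in melanotropes. The gene pomcb is a paralog of pomca. Prolactin (prl), growth hormone (gh1) and the somatolactins (smtla, smtlb), which are hormones of fish, form one protein family and are made by separate cell types. Thyrotropin, luteinizing hormone and follicle-stimulating hormone each pair a beta subunit of their own (tshba, lhb, fshb) with a shared alpha subunit (cga). Thyrotropes and gonadotropes thus both use cga.

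Totals ran from 4250948 to 6068781 counts per library. In positive libraries 11308 to 11817 genes had a count, against 7079 to 9056 in negative ones. Of all 14781 genes, 2422 had no count in any negative library and 1536 none in any positive one. Both numbers include genes without a count in any library, as only 13723 genes had a count in some library. The hormone genes together took 1.02 to 3.6% of the counts of positive and 0.209 to 4.57% of those of negative libraries. Of astroglial and pituicyte markers, 16 of 18 tested were higher in positive libraries, and slc1a3a and tgfb3 had no count in any negative one. These markers took 0.715 to 1.9% of positive and 0.0272 to 0.0714% of negative counts. Of all 9094 genes tested by edgeR, 13.1% were higher and 7.06% lower in positive libraries. Markers of further cells differed with the groups as well. All 13 red cell markers tested were lower in positive libraries (0.0459 to 0.14% against 22.7 to 40.6% of counts). Each of them had counts in some library of both groups. Leukocyte markers were higher for 11 and lower for 1 of 15 tested (1.53 to 3.76% against 0.12 to 0.429%), and epithelial and progenitor markers were higher for 6 of 8 (0.464 to 0.677% against 0.00489 to 0.0441%), with no count of krt5 in negative libraries. Neuronal markers had 0 of 6 past the edgeR test, 0 at an unadjusted p under 0.05 and 0 by DESeq2 or limma (0.0116 to 0.0177% against 0.00391 to 0.0189% of counts), with no count of gap43 in either group, of oxt in negative or of avp in positive libraries. The part of these cells in the hormone levels was not tested.

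Apart from the somatolactin genes, the hormones showed 2 patterns. The pro-opiomelanocortin genes separated the groups, and pomca had 2982 CPM (counts per 1000000, TMM-scaled) or more in each positive library and at most 47.8 CPM in the negative ones. The remaining hormones, the somatolactins aside, were present in both groups and varied from library to library. The somatolactin genes had fewer counts, 113 of smtla and 940 of smtlb in positive libraries. In negative libraries they had 10 and 46. Among prl, gh1, tshba, lhb, fshb and cga, the highest library of a gene exceeded the lowest by 4.43 to 780 times in positive and by 51.9 to 14372 times in negative libraries.

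**Figure D1:**
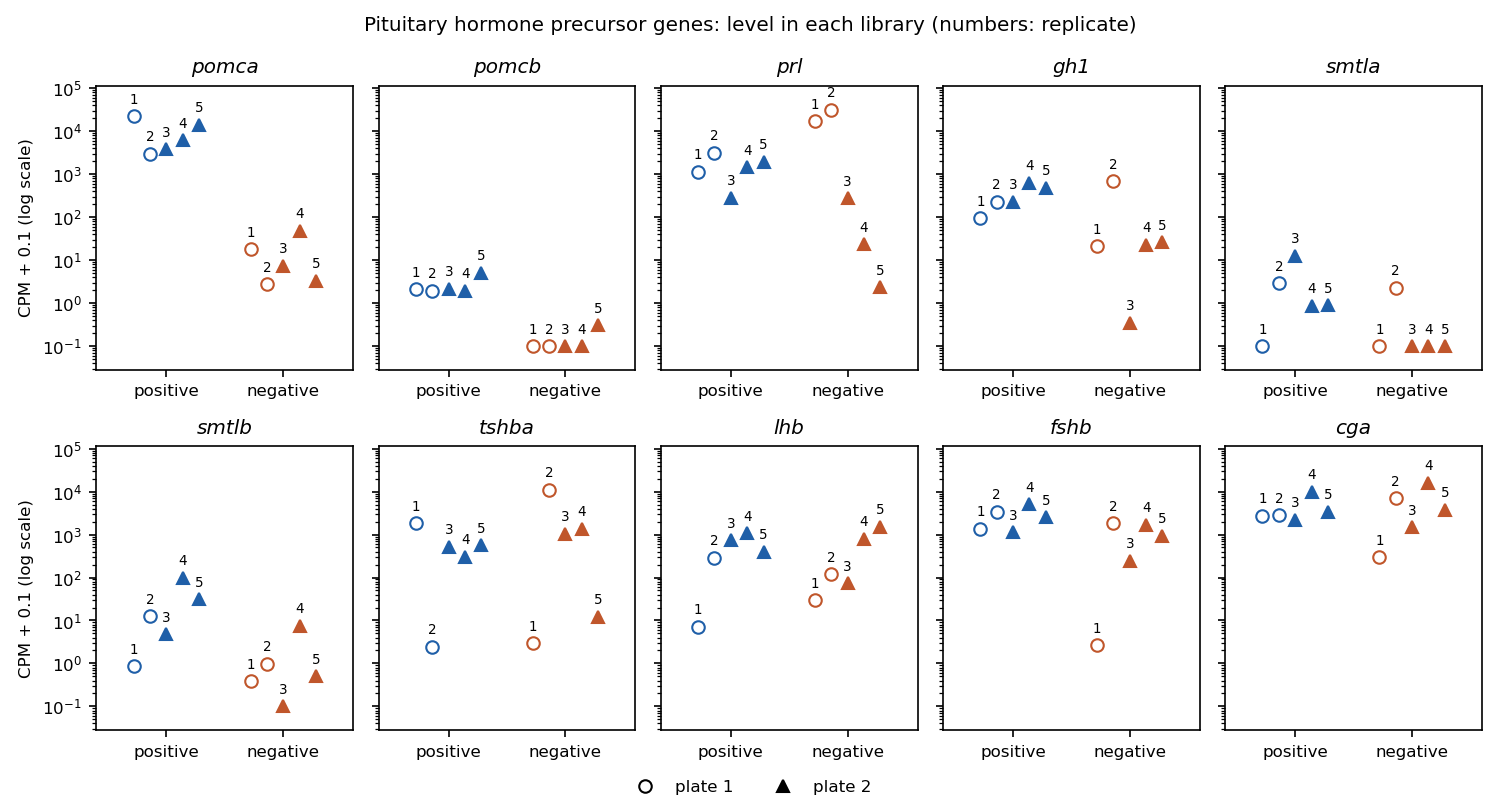
Level of each hormone gene in the 10 libraries, as CPM plus 0.1 on a log axis. Each point is 1 library, numbered by replicate; open circles are plate 1 and filled triangles plate 2. Only pomca and pomcb have every positive library above every negative one, and prl runs from 31900 CPM down to 2.22 CPM among negative libraries.

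The pro-opiomelanocortin gene pomca was at 22663, 2982, 3822, 6146 and 14231 CPM in positive replicates 1 to 5. In negative replicates 1 to 5 it was at 18.0, 2.64, 7.35, 47.8 and 3.23 CPM. Even the lowest positive library held far more than the highest negative one, and the groups did not overlap. Its mean was 9969 ± 8375 CPM against 15.8 ± 18.9 CPM (SD, n = 5 each), a log2 fold change of 9.31 ± 1.18 (SE). The edgeR quasi-likelihood test, which included the plate, gave a Benjamini-Hochberg adjusted p of 0.000394. In bulk libraries, fewer cells of a type and less RNA per cell cannot be told apart. Within plate 1 alone the log2 fold change was 9.98 (edgeR adjusted p = 0.116) and within plate 2 alone 8.69 (edgeR adjusted p = 0.0140). Under limma-voom with weights for library quality the call of pomca ended, with a log2 fold change of 9.85 (limma adjusted p = 0.323).

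The paralog pomcb followed the same division with few counts. Positive replicates 1 to 5 held 13, 11, 14, 12 and 31 counts, and the negative libraries held 1 count in all, in replicate 5. The pooled ratio was 56.6-fold, with a 95% counting interval of 9.87 to 2261. By edgeR its log2 fold change was 5.36 ± 1.04 (SE, n = 5 per group; adjusted p = 0.00402), and on plate 1 alone the call was lost at 6.25 (edgeR adjusted p = 0.117). Within positive libraries pomcb did not scale with pomca, with 0.0874 pomcb counts per 1000 pomca counts in replicate 1 and 0.3 to 0.615 in the other 4. Reads shared between the paralogs could have been split in counting, so the level of pomcb is uncertain.

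With these, 2 of 9 hormone genes tested were higher in positive libraries, against a background of 13.1% of all 9094 genes tested, and 0 were lower, against 7.06%. The filter on low counts left out smtla. No lower hormone gene was called by DESeq2 or limma either, nor by edgeR at an unadjusted p under 0.05 (0 in each case). The groups did not overlap for 2 of the 10 genes, a share of 20%, both with the positive libraries above, as for 18.4% of all genes tested. For 0 of the 10 were the positive libraries all below, the case for 6.49% of all genes tested. The shares of higher and of separated hormone genes are near the background. The median log2 fold change was 1.51 over the 9 genes and 0.51 over all genes tested. In the authors' deposited table, which compared the same groups, 3 of the 10 genes had an adjusted p under 0.05, all higher. That table had 22.3% of 11270 genes higher and 8.31% lower, the latter with 0 hormone genes. Beside pomca and pomcb it was smtlb, with a log2 fold change of 3.96 and an adjusted p of 0.00724 in the authors' deposited table. The edgeR fit gave smtlb a log2 fold change of 3.83 ± 1.49 (SE; adjusted p = 0.104).

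**Figure D2:**
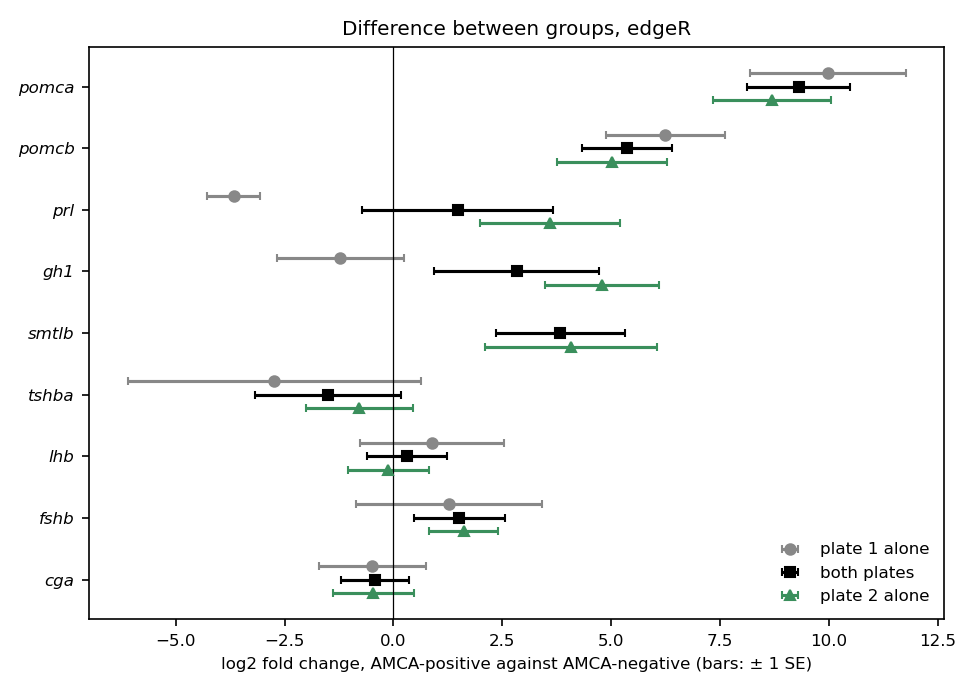
Log2 fold change of each tested hormone gene, positive against negative, from edgeR on both plates (black squares), plate 1 alone (grey circles) and plate 2 alone (green triangles); bars are ± 1 SE. The values of pomca and pomcb lie right of 0 in all 3 fits, while prl lies at -3.67 on plate 1 and 3.60 on plate 2; smtlb has no value on plate 1 alone.

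Prolactin had the largest SD of log2(CPM + 1) of the hormone genes in negative libraries, at 5.79. Positive replicates 1 to 5 held 1157, 3144, 286, 1441 and 1950 CPM of prl. Negative replicates 1 and 2, both on plate 1, held 17188 and 31900 CPM, and negative replicates 3, 4 and 5, all on plate 2, held 277, 23.4 and 2.22 CPM. The negative libraries of plate 1 thus exceeded every positive library, and those of plate 2 lay below every one. The mean was 1596 ± 1055 CPM in positive and 9878 ± 14363 CPM in negative libraries (SD, n = 5), while the fitted log2 fold change had the other sign, 1.47 ± 2.20 (SE; adjusted p by edgeR = 0.722). Without the plate term the fitted value was -2.63 (edgeR adjusted p = 0.346). The fitted log2 fold change was -3.67 on plate 1 alone and 3.60 on plate 2 alone, so the sign differed between plates. The plate by group term, plate 2 minus plate 1, was 7.11 ± 2.23 on the log2 scale (SE). It did not pass when adjusted over all genes (edgeR test of the plate by group term, unadjusted p = 0.0104, adjusted p = 0.418). No gene of the 9094 passed that test by edgeR with adjustment, and 9.96% had an unadjusted p under 0.05. Among the hormone genes 2 had an unadjusted p under 0.05, prl and gh1.

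Growth hormone RNA also varied among negative libraries, with 1 library far above the others. In positive replicates 1 to 5 gh1 was at 94.4, 231, 228, 635 and 490 CPM. In negative replicates 1 to 5 it was at 21.1, 687, 0.245, 22.5 and 25.8 CPM. Negative replicate 2 was the highest of all 10 libraries, and the other 4 negative libraries lay below every positive one. Over all libraries gh1 did not pass (log2 fold change 2.83 ± 1.89, SE, n = 5 per group; edgeR adjusted p = 0.365). Without negative replicate 2 it did (log2 fold change 4.19, edgeR adjusted p = 0.0161), as it did by the DESeq2 Wald test (3.05, adjusted p = 0.0339) and on plate 2 alone (4.80, edgeR adjusted p = 0.0447). The fitted value was -1.22 on plate 1 alone (edgeR adjusted p = 0.693), and the difference between plates was 5.92 ± 2.19 on the log2 scale (SE; edgeR unadjusted p = 0.0234, adjusted p = 0.435). Without negative replicate 2 that difference was 1.85 (edgeR adjusted p = 0.635).

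The 2 hormones did not keep a fixed proportion. There were 12.3, 13.6, 1.26, 2.27 and 3.98 prl counts for each gh1 count in positive replicates 1 to 5. In negative replicates 1 to 5 there were 813, 46.4, 1132, 1.04 and 0.0859. Negative replicate 2 was the highest of all libraries in both genes, whereas negative replicate 1 was next to it in prl but below every positive library in gh1. The transcription factor gene pou1f1, which in vertebrates is needed for the cells that make prolactin, growth hormone and thyrotropin, was at 90.8 CPM in negative replicate 2 and at 0.245 to 2.82 CPM in the other 4 negative libraries. In positive libraries it was at 3.17 to 15.2 CPM, and it did not pass the test (log2 fold change 1.97, edgeR adjusted p = 0.613).

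The somatolactin genes had few counts in most libraries. For smtlb, positive replicates 1 to 5 held 0.762, 12.3, 4.74, 97.6 and 30.8 CPM, and negative replicates 1 to 5 held 0.282, 0.879, 0, 7.37 and 0.404 CPM. All negative libraries but replicate 4 lay below 1 CPM, and positive replicate 1 lay there as well, so the groups overlapped. DESeq2's Wald test called smtlb higher (log2 fold change 4.06, adjusted p = 0.00480), as in the authors' deposited table. The gene smtla had 0, 17, 86, 5 and 5 counts in positive replicates 1 to 5 and 10 counts in negative libraries, all in replicate 2. The filter left it out of the test, and the authors' deposited table gave it a log2 fold change of 2.74 with an adjusted p of 0.246.

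Thyrotropin beta was present in some libraries of each group and nearly missing from others. In positive replicates 1 to 5 tshba was at 1820, 2.33, 520, 301 and 568 CPM. In negative replicates 1 to 5 it was at 2.82, 10988, 1044, 1346 and 12.1 CPM. Positive replicate 2 and negative replicates 1 and 5 were low, and negative replicate 2, which also led in prl and gh1, was the highest. The log2 fold change was -1.50 ± 1.68 (SE, n = 5 per group; edgeR adjusted p = 0.613), and without negative replicate 2 it was 0.19 (edgeR adjusted p = 0.968).

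Of the gonadotropin beta subunit genes, fshb varied less than lhb among positive libraries (SD of log2(CPM + 1) 0.91 against 2.83) and more among negative ones (3.77 against 2.38). Positive replicates 1 to 5 held 1355, 3422, 1133, 5139 and 2532 CPM of fshb, and negative replicates 1 to 5 held 2.54, 1846, 248, 1697 and 939 CPM. Negative replicate 1 stood far below the rest, and the ranges overlapped. For fshb the log2 fold change was 1.51 ± 1.05 (SE; adjusted p by edgeR = 0.383). For lhb, positive replicates 1 to 5 held 7.01, 291, 746, 1069 and 396 CPM, and negative replicates 1 to 5 held 29.6, 119, 73.8, 806 and 1535 CPM. Here the lowest library was positive replicate 1 and the highest negative replicate 5, and the log2 fold change was 0.32 ± 0.91 (SE; adjusted p by edgeR = 0.862). The shared alpha subunit gene cga was at 2759, 2844, 2213, 9805 and 3432 CPM in positive replicates 1 to 5. In negative replicates 1 to 5 it was at 300, 6954, 1465, 16108 and 3760 CPM. Replicate 4 was highest in each group, and the log2 fold change of -0.43 ± 0.79 (SE; adjusted p by edgeR = 0.778) turned to 0.33 without negative replicate 2, 0.32 without negative replicate 4 and 0.07 by limma-voom with quality weights.

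The beta subunits differed in how they stood to cga. In positive libraries there were 0.491, 1.20, 0.512, 0.524 and 0.738 fshb counts for each cga count in replicates 1 to 5. In negative libraries there were 0.00846, 0.265, 0.169, 0.105 and 0.250. The groups did not overlap in this ratio on either plate, a comparison that was made after the values were seen and was not tested. How often ratios of other genes separate the groups was not computed. Negative replicate 1 held only 9 fshb counts. Thyrotropes use cga as well, and their part in the ratio was not tested. For lhb the ratio to cga ran from 0.00254 to 0.337 in positive and from 0.0172 to 0.408 in negative libraries. For tshba it ran from 0.00082 to 0.660 and from 0.00322 to 1.58, so both overlapped. These are ratios of counts, without correction for transcript length, and can be compared between libraries but not between genes.

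**Figure D3:**
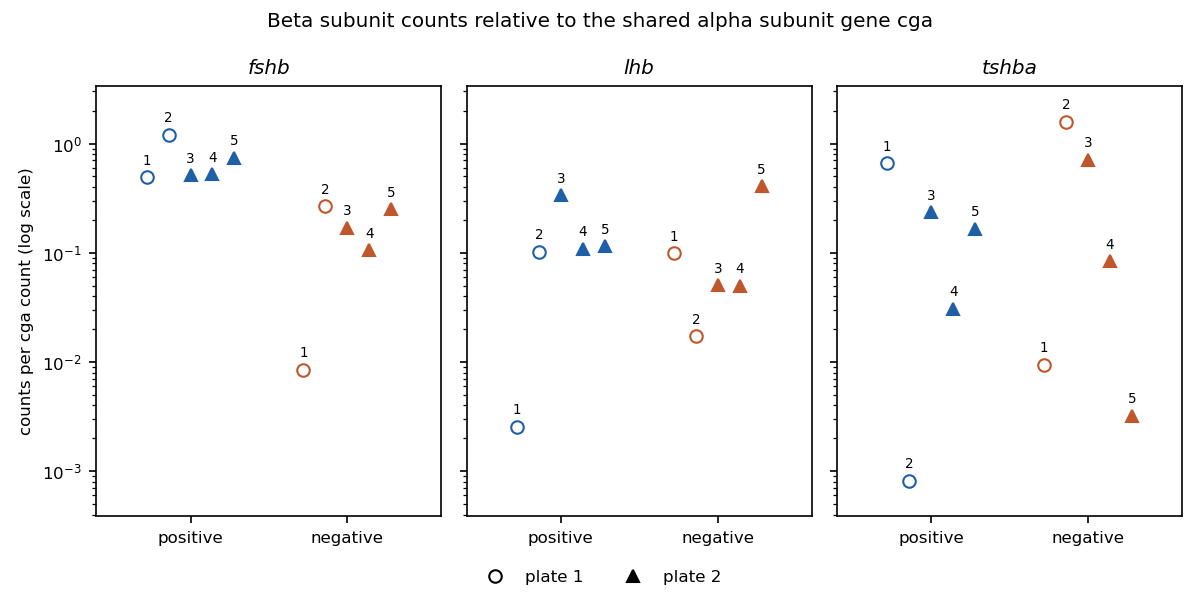
Counts of the beta subunit genes fshb, lhb and tshba for each count of the shared alpha subunit gene cga, by library, on a log axis; open circles are plate 1, filled triangles plate 2, and numbers are replicates. The fshb ratio is 0.491 to 1.20 in positive and 0.00846 to 0.265 in negative libraries, while the ratios of lhb and tshba overlap.

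Each negative library had its own mixture of hormones. Replicate 1 held prl, with pomca, gh1, tshba and fshb at 21.1 CPM or less. Replicate 2 was the highest of its group for 5 of the 10 genes, prl, gh1, smtla, tshba and fshb. Replicate 3 held cga at 1465 and tshba at 1044 CPM, with gh1 at 1 count. Replicate 4 was highest for 3 genes, pomca, smtlb and cga, and replicate 5 for lhb and pomcb, with prl at its lowest. Among positive libraries, replicate 4 was the highest for 5 genes, gh1, smtlb, lhb, fshb and cga, while replicate 1 led in pomca and tshba and was alone the lowest for 4 genes, gh1, smtla, smtlb and lhb.

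**Figure D4:**
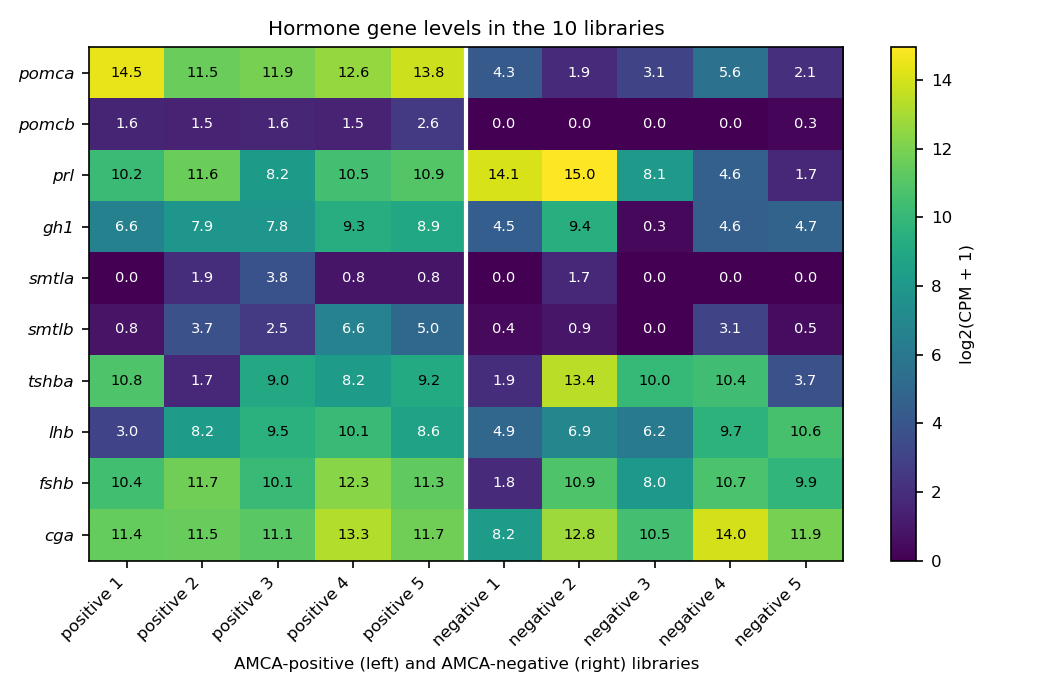
Level of each hormone gene in each library as log2(CPM + 1), with positive libraries on the left and negative ones on the right of the white line. The column of negative replicate 2 is high for prl, tshba, cga and fshb together, and that of negative replicate 1 is high for prl with fshb and tshba below 2.

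The spread within groups was wider among negative libraries for 6 of the 7 hormone genes with a mean of at least 20 CPM. That is 85.7%, near the 88.5% of all 4924 genes at that level with the wider spread there. In size, the median SD of log2(CPM + 1) was 1.24 in positive and 3.23 in negative libraries for these hormone genes, beside 0.427 and 1.32 over all genes at that level. The exception was lhb, with SDs of 2.83 in positive and 2.38 in negative libraries.

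Which hormones rose and fell together was examined with the group means removed, since the 10 libraries fall into 2 groups. Pearson's r and Spearman's rho of log2(CPM + 1) were computed for the 36 pairs among the 9 genes with at least 10 counts in at least 5 libraries, each with a two-sided exact permutation test over the 14400 arrangements of libraries within groups. Spearman's rho used ranks within each group. Pairs of other genes were not tested, so no share over all genes stands beside the count of hormone pairs. One pair passed, fshb with cga, at r = 0.921 (exact permutation p = 0.000764, Benjamini-Hochberg adjusted over 36 pairs 0.0275) and rho = 0.9 (exact permutation p = 0.00431, adjusted 0.0775). Without the 2 libraries farthest from the median of fshb, negative replicates 1 and 2, r of this pair was 0.882. Here and below, distance from the median of a gene is taken on log2(CPM + 1) after the group means are subtracted. With the means of plate and group removed it was 0.914 (exact permutation, adjusted p = 0.188). That setting permutes only within plate and group, with far fewer arrangements, so a pair that stands alone could not pass after adjustment. Leaving out 1 library gave r from 0.87 to 0.94 and ended the call in 8 of 10 cases, all but those without positive replicate 2 or negative replicate 4 (exact permutation, adjusted p from 0.025 to 0.137).

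The other beta subunits followed cga less closely in value, with r = 0.547 for lhb (exact permutation p = 0.0803, adjusted 0.522) and r = 0.521 for tshba (exact permutation p = 0.211, adjusted 0.844). The rho was 0.55 for lhb (exact permutation p = 0.145, adjusted 0.581) and 0.25 for tshba (exact permutation p = 0.544, adjusted 0.852). Without the 2 libraries farthest from the median of lhb, negative and positive replicate 1, the first was 0.489, and without negative replicate 1 and positive replicate 2, the farthest for tshba, the second was 0.131. Whether these differ from the r of fshb was not tested. In positive replicate 2 and negative replicate 5 tshba was low while cga was not, and in positive replicate 1 lhb was low while cga was not. The somatolactin gene smtlb had r = 0.580 with cga (exact permutation p = 0.0226, adjusted 0.407) and 0.675 with lhb (p = 0.0541, adjusted 0.522), and its rho with lhb was 0.65 (exact permutation p = 0.0761, adjusted 0.343). Without the 2 libraries farthest from the median of smtlb, positive replicates 1 and 4, these were 0.651 and 0.327. With the means of plate and group removed, r with cga was 0.479 for lhb, 0.536 for tshba and 0.601 for smtlb, and r of smtlb with lhb was 0.551.

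By ranks, gh1, smtlb, fshb and cga were ordered alike. All 6 pairs among them had an unadjusted p under 0.05 by exact permutation of rho, from rho = 0.75 for gh1 with cga to 0.9 for smtlb with cga and for fshb with cga, and 0 passed after adjustment (lowest 0.0775). These 6 were the only pairs of the 36 under that level by rho. In negative replicates 1 to 5 smtlb had 1, 4, 0, 39 and 2 counts, so its ranks there turn on few counts. By Pearson's r the gh1 pairs among them were lower, at 0.379 with smtlb, 0.333 with fshb and 0.412 with cga. Without negative replicates 2 and 3, the farthest from the median of gh1, they were 0.864, 0.242 and 0.303. With the means of plate and group removed, they were 0.507, 0.879 and 0.869.

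No pair with prl or pomca passed, and their r moved with the libraries and the plate. The r of prl was -0.556 with lhb (exact permutation p = 0.0869, adjusted 0.522), -0.393 with fshb, -0.365 with cga and 0.401 with gh1. The rho was -0.45 with lhb (exact permutation p = 0.246, adjusted 0.739), and with fshb and cga it had the other sign, at 0.4 and 0.2. Without negative replicates 2 and 5, the farthest from the median of prl, its r was -0.481 with lhb, -0.828 with fshb, -0.791 with cga and 0.143 with gh1, and with tshba it went from 0.0732 to -0.753. With the means of plate and group removed, the r of prl was -0.384 with lhb, 0.0303 with fshb, -0.0373 with cga and -0.352 with gh1. The r of prl with gh1 thus changed sign when the plate was taken into account, and with fshb and with cga it was near 0. The r of pomca with the other 8 genes ran from -0.334 for lhb to 0.2 for tshba. Without negative replicate 4 and positive replicate 1, the farthest from the median of pomca, it ran from -0.685 for fshb to 0.497 for pomcb, with -0.581 for cga and -0.495 for lhb. With the means of plate and group removed it ran from -0.516 for lhb to 0.219 for tshba. Libraries from one pool may share fish, so the 10 points are not fully independent.

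**Figure D5:**
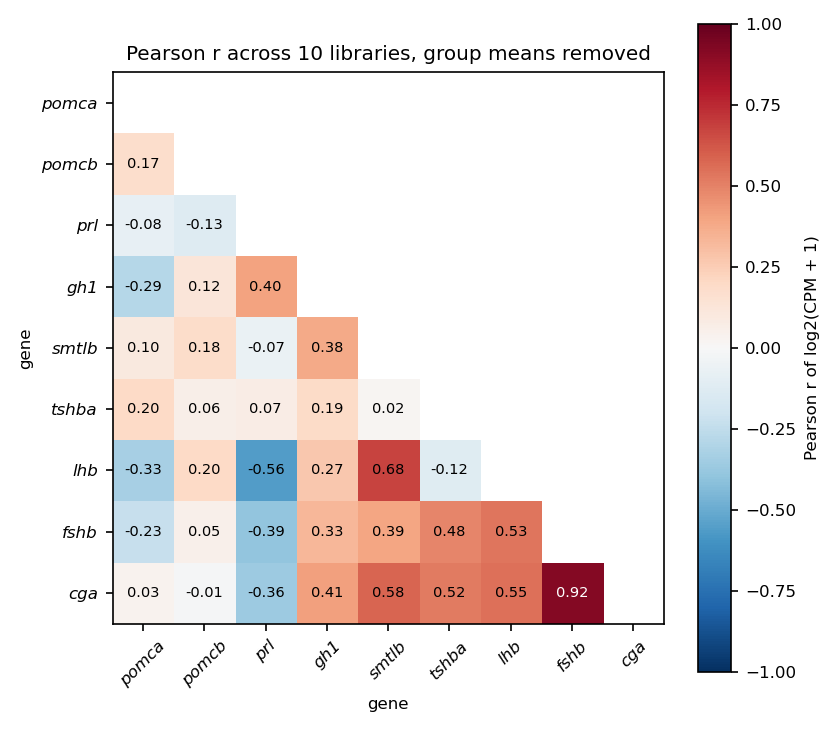
Pearson r of log2(CPM + 1) for each pair of the 9 eligible hormone genes across the 10 libraries after removing group means; blue is negative and red positive. The darkest cell is fshb with cga at 0.92, and the row of cga holds positive values for gh1, smtlb, tshba, lhb and fshb.

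Genes with the pattern most like that of a hormone were listed by Pearson r of log2(CPM + 1) over all 10 libraries, groups included, among 4940 genes with a mean of at least 20 CPM. For pomca they were abi3bpb (r = 0.986), ca8 (0.985), tbx2a (0.981), fzd8a (0.981) and crtap (0.980). All 5 were higher in positive libraries by edgeR, with log2 fold changes from 6.14 to 9.01, and the difference between groups is part of their r. For prl they were sumf1 (r = 0.957), prpf18 (0.938), zgc:195023 (0.931), rab24 (0.928) and hebp2 (0.924), and for gh1 snx7 (0.962), txnl1 (0.955), cds2 (0.942), znf703 (0.937) and khdrbs1a (0.926). None of these 10 passed the comparison of the groups by edgeR (adjusted p from 0.0914 to 0.99). They were picked as the highest of many, and carry no test.

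Genes that act with the hormones in endocrine cells were counted from lists of known genes. The transcription factor gene neurod1, active in corticotropes of mammals, was at 42.9 to 249.5 CPM in positive and 60.7 to 193 CPM in negative libraries (edgeR adjusted p = 0.885). Of the granule and prohormone processing genes 0 of 6 tested passed by edgeR, where 13.1% of all genes tested were higher and 7.06% lower. For 1 of the 6 the unadjusted p was under 0.05, and DESeq2 called 2 higher and limma 1. The smallest adjusted p by edgeR was that of chga, a granule protein gene, at 26.4 to 55.3 CPM in positive libraries, 8.79 CPM in negative replicate 2 and 0 in the other negative ones (log2 fold change 6.62 ± 2.16, SE; edgeR adjusted p = 0.0536). The granule gene scg3 was at 1798 to 3872 CPM in positive and 1108 to 5146 CPM in negative libraries. The convertase gene pcsk1, whose product cuts pro-opiomelanocortin, was left out by the filter. It had 5.79, 0.667, 0.888, 4.46 and 11.1 CPM in positive replicates 1 to 5 and no count in negative libraries. Of all 14781 genes, 2422 had no count in any negative library. That number includes genes without a count in any library, as 13723 genes had a count in some library. The share of genes with counts in positive libraries alone is therefore smaller. The convertase gene pcsk2 had 4 counts over all libraries.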

How the data were processed

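The authors deposited raw counts per gene and library as whole numbers, per the file headers. In the deposited normalized signal, counts are scaled by a constant within each library; these values were not used further. The authors' deposited log2 fold changes, p-value and score columns (test statistic, rounded means) compare the same groups, and only fold changes and adjusted p were copied. Build danRer10 and the tools TopHat2 2.0.13, HTSeq, cutadapt and DESeq2 appear in the submitters' processing notes without their roles. The annotation, the strand setting and how reads shared by paralogs were counted are not stated. Cells were sorted by dye and cDNA was amplified with the SMARTer kit, per the labels' protocols, so reads are not independent molecules and counting intervals cover counting error only.

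The test of counts was the robust quasi-likelihood F test of edgeR 4.0.16 (R 4.3.3) with terms for plate and group, after filterByExpr by group and TMM scaling. It was two-sided, with Benjamini-Hochberg adjustment over all 9094 genes and a threshold of 0.05. SE is the one implied by the F test. CPM is the count per 1000000 of the TMM-scaled library size. Replicate numbers follow sample order and were not used as pairs, since which libraries share a pool is not stated. The p-values rest on the spread between these libraries, taken as independent. How far this is a spread between pools is not known, and it is not one between single fish. Pools shared by libraries of opposite groups were not modelled. Plate is taken from the sample titles. Cells came from 2 sorting experiments, to which the libraries were not assigned here, so plate and sort were not told apart. Pairs of genes were tested by exact permutation (numpy 2.4.6). The edgeR test and the permutation test were run on simulated data with equal spread in both groups and no plate or shared pool. The libraries here differ from that setting, with a wider spread among negative ones. Alternatives were DESeq2 1.42.0, limma 3.58.1 voom with quality weights, other scalings, filters and pseudocounts, a block of neighbouring wells, a fit without the plate, fits to 1 plate, and fits that leave out 1 library. A filter by the design matrix and leaving out negative replicate 1, which had the fewest counts of all libraries, together with negative replicate 3, which had the fewest genes with a count, were added after seeing the data.

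The genes and lists were chosen with earlier results of these data known. Named are all 10 hormone genes, up to 4 genes past the test of each other list, and the 5 genes most like pomca, prl and gh1; pou1f1, neurod1, scg3, chga, pcsk1 and other genes below the threshold were named after their values were seen. Of the lists, 2 entries were found by synonym. The count over the list of pituitary transcription factors is not reported here.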

Additional observations from a re-analysis of the deposited data

Results flagged for a closer look

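Among 20 groups of 5 libraries (10 genes in each of 2 groups), 8 had a library far from the other 4 by Dixon's test. The test was run on CPM without a log scale. Its chance rate of about 1 in 20 holds for normally distributed values, which CPM over such wide ranges need not be. The count of 8 can therefore not be set against that rate. In negative libraries, replicate 2 stood apart for gh1 (687 CPM), tshba (10988 CPM) and smtla (2.20 CPM), replicate 4 for smtlb (7.37 CPM) and replicate 5 for pomcb (0.202 CPM, 1 count). In positive libraries, replicate 3 stood apart for smtla (12.7 CPM), replicate 4 for cga (9805 CPM) and replicate 5 for pomcb (4.93 CPM). For pomcb and smtla the other 4 negative libraries were all at 0.

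For prl the difference between the groups had opposite directions on the plates. On plate 1 both negative libraries lay above both positive ones, and on plate 2 all 3 lay below all 3. The order on plate 2 rests on a near tie, with negative replicate 3 at 277 CPM and positive replicate 3 at 286 CPM. The plate by group term was 7.11 on the log2 scale (edgeR unadjusted p = 0.0104, adjusted p = 0.418), so the difference between plates did not pass over all genes. Plates hold only 2 or 3 libraries of each group.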

How the results depend on the processing

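The main limits are 5 libraries per group, negative libraries that differ widely, and low counts of pomcb, smtla and smtlb. Over the alternatives run for single genes and pairs, 216 of 248 kept direction and side of the threshold, 15 reversed, 12 no longer passed and 5 newly passed; the causes were not tested. The hormone genes called higher numbered 2, and 4 by the DESeq2 Wald test (which gave no adjusted p for prl), 1 by limma-voom with quality weights, 1 with at least 10 CPM in 5 libraries (which removes pomcb and smtlb), 0 on plate 1 alone and 3 on plate 2 alone, and 2 without negative replicates 1 and 3. With 1 library left out they numbered 2 to 3. All genes called higher numbered 1190, against 2076 by the DESeq2 Wald test, 2426 by limma-voom, 676 with at least 10 CPM in 5 libraries (742 lower) and 29 on plate 1 alone, where 34 were lower. Under the filter by the design matrix 1693 genes were higher, and 2 hormone genes. DESeq2 size factors moved the median log2 fold change of all genes by 0.152 and turned no hormone gene.

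Reversed log2 fold changes, none past the test, were as follows. By limma-voom tshba was at 0.37 and cga at 0.067. With no plate term prl was at -2.63 and lhb at -0.032. With neighbouring wells as a block cga was at 0.21, and that block left 2 hormone genes called. On plate 1 alone prl was at -3.67 and gh1 at -1.22, and on plate 2 alone lhb at -0.12. Without negative replicates 1 and 3 lhb was at -0.42. With 1 library left out, prl ran from -0.14 to 2.63, lhb from -0.86 to 0.85, tshba from -1.94 to 0.19 and cga from -0.89 to 0.33.

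The pairs of hormone genes that passed numbered 1, and 2 with a pseudocount of 10 CPM and 0 to 2 with 1 library left out. With the means of plate and group removed they numbered 0, a setting whose few arrangements keep a lone pair from passing after adjustment. Hormone genes with a plate difference stayed at 0 under every alternative run for that test. Neighbouring wells are not stated to hold the same pool, so the block carries no known pairing.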

Other observations

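Receptors for pituitary and releasing hormones were mostly scarce in these libraries. Of 13 measured receptor genes for the hormones themselves 2 could be tested, both for growth hormone, and they differed in opposite directions. Among all genes tested 13.1% were higher and 7.06% lower in positive libraries by edgeR. The gene ghra was at 10.4 to 34.3 CPM in positive and 0 to 0.189 CPM in negative libraries (log2 fold change 8.08 ± 1.33, SE; edgeR adjusted p = 0.00177). Its paralog ghrb was at 43.0 to 82.1 CPM in positive and 268 to 470 CPM in negative libraries (log2 fold change -2.66 ± 0.30, SE; edgeR adjusted p = 0.000144). In both genes the groups did not overlap. Among all genes tested, every positive library lay above every negative one for 18.4% and below for 6.49%. The red cell markers of these libraries differ as given above, and the part of those cells was not tested. The thyrotropin receptor gene tshr had 6.55, 5.00, 0.888, 3.99 and 10.0 CPM in positive replicates 1 to 5 and no count in negative libraries. It was left out by the filter. No count in any negative library was the case for 2422 of all 14781 genes. These include genes without a count in any library, as 13723 genes had a count in some library. Genes with counts in positive libraries alone are therefore fewer.

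Of 18 measured genes for receptors of releasing factors, steroids and related signals, 6 could be tested. Of these 0 were higher (0 by DESeq2, 2 by limma, 0 by edgeR without adjustment), against 13.1% of all genes tested. By edgeR 1 was lower, against 7.06% of all genes tested. The lower one was the glucocorticoid receptor gene nr3c1. It was at 31.0 to 98.9 CPM in positive and 106 to 218 CPM in negative libraries, without overlap (log2 fold change -1.27 ± 0.39, SE; edgeR adjusted p = 0.0435), and limma called no gene of the list lower. The somatostatin receptor gene sstr5 was at 10.2 to 36.4 CPM in positive and 0 to 8.27 CPM in negative libraries and did not pass (log2 fold change 2.85 ± 1.61, SE; edgeR adjusted p = 0.272).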
